A study of Mus musculus with 8 samples.

Results

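Transcripts of testis histone variants and of the HMG-box gene Hmgb4 were examined in whole testes of mice mutant for Brwd1 and of control mice. Members were all probe sets that the platform annotation assigns to H1f6 (older name Hist1h1t), H2bc1 (Hist1h2ba), H1f7 (H1fnt), Hils1, H2al2a, H2bl1 (1700024P04Rik), H2ap or Hmgb4. This gave 9 probe sets of the 45037 on the array that are not controls, and they covered 7 of the 8 genes. No probe set carried the symbol H2bc1, so that gene is not analysed here. An intensity filter then kept probe sets with an 8-array mean over 67.1 intensity units, the 40th percentile. Of the 9 probe sets 7 passed it, from 6 genes, and their lowest value on any array was 86.0. The only probe set of H1f6 and the weaker of the 2 probe sets of H2ap lay below it.

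Each of the 8 mice, aged 27 days, gave RNA of its whole testes for 1 Affymetrix array. The 4 mutants are labelled Brwd1-/-. The titles of the 4 controls say wild type, but their genotype entry adds Brwd1+/- to those words, so they may carry 1 mutant copy; they are called wild type here. The labels name neither the kind of Brwd1 mutation nor the strain, and whole testis mixes germ cells with somatic cells. Every array was scaled to the same trimmed mean, 500, and array medians ran from 90.7 to 124. Precision is limited by the number of arrays, 4 a genotype.

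In sperm development, histones are exchanged for variants made only in germ cells, and most of these later give way to transition proteins and then protamines. H1f6 encodes H1t, the linker histone of spermatocytes in meiosis, and H2bc1 encodes TH2B, the H2B variant of the same cells. H1f7 (H1T2) and Hils1 are linker histones of spermatids, and H2al2a (H2A.L.2) and H2bl1 are core variants that appear as spermatids condense their chromatin. H2ap is a short, X-linked relative of H2A. Hmgb4 encodes a testis protein with HMG boxes, which bind and bend DNA. In whole testis, fewer cells of a type and less RNA per cell cannot be told apart.

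The promoters of the 6 genes above the filter are shown because their levels varied together across the 8 mice, as described further on. Each window runs from 250 bases before to 50 bases after the start of the gene in RefSeq (GRCm38.p6), 5′ to 3′ on the gene's strand. Capitals mark matches on either strand to TGACNTCA, a loose form of the cAMP response element TGACGTCA, and to TGACG, the first 5 bases of that element. The element is the binding site of CREM, an activator of spermatid genes. Windows were found for all 8 genes.
H2al2a, chr2:17996909-17997208, minus strand: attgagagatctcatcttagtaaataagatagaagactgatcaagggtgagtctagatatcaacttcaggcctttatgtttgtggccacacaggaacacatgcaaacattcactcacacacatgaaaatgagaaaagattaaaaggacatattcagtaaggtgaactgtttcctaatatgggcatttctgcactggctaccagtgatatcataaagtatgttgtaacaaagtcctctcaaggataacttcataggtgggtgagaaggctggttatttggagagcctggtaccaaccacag
H2bl1, chr13:98984516-98984815, minus strand: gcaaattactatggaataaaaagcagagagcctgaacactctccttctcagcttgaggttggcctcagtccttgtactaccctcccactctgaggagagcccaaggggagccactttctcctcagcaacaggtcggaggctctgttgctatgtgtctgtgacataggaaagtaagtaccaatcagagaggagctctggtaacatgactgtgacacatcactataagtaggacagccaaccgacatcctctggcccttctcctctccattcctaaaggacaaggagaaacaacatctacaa
H2ap, chrX:9846697-9846996, plus strand: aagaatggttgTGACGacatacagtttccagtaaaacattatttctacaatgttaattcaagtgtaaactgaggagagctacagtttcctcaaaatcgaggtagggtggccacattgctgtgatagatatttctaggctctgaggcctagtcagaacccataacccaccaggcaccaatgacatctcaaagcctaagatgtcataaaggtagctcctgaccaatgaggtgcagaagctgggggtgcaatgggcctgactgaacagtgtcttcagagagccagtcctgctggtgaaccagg
Hils1, chr11:94967343-94967642, plus strand: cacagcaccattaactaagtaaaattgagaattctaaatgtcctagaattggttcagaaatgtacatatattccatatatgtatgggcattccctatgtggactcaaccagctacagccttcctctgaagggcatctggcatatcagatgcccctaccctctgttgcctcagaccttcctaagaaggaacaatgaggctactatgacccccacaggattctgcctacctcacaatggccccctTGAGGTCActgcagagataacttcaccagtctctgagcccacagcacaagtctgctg
H1f7, chr15:98257258-98257557, minus strand: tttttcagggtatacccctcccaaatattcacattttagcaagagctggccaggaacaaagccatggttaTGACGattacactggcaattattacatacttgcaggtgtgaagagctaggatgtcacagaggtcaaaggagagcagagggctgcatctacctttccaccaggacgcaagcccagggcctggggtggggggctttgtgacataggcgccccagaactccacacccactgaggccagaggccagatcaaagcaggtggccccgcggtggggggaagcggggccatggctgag
Hmgb4, chr4:128260846-128261145, minus strand: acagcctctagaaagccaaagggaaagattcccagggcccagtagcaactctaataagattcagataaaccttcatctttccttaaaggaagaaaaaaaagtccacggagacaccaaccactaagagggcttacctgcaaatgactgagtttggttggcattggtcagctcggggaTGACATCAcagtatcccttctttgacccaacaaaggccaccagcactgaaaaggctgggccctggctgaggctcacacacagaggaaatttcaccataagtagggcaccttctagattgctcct
None of the 8 windows held TGACGTCA, which 1.79% of all 32851 promoter windows hold. TGACNTCA was found at Hils1 and Hmgb4, and in 8.83% of all windows. TGACG was found at H1f7, H2ap and H2bc1, and in 20.8% of all windows. The windows of H2al2a and H2bl1 held neither. CCAAT was present in 6 of the 8 windows, all but those of H2al2a and H1f7, and in 37.4% of all windows. TATAAA was present at H2bc1 alone among the 8, and in 13.6% of all windows. These matches describe letters only.

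The spermatid variants and Hmgb4 were lower in mutants on all 7 kept probe sets, with log2 differences from -2.70 to -1.81 and a median of -2.45. Over all 27022 kept probe sets the median was 0.07. On each of the 7 probe sets the highest mutant was below the lowest wild-type mouse, which held for 3.83% of kept probe sets. In a limma test of genotype alone, without a block for other differences between mice, none was called at an adjusted p under 0.05, 0 of 7 (adjusted p from 0.112 to 0.347). All 7 had an unadjusted p under 0.05, from 0.000717 to 0.0121, and 0.115% of kept probe sets were called lower. With the replicate number as a block, 5 of the 7 were called lower, against 2.18% of kept probe sets. Replicates 1 and 2 of both genotypes also stood apart from replicates 3 and 4, as described further on, and a block for that split (the split block) gave 2 calls, against 1.48%. With array weights, which count far arrays less, 6 were called, against 2.25%. H2bl1 and the weaker probe set of H1f7 were the 2 called with both blocks. Without the intensity filter, when all 45037 probe sets were tested, an alternative chosen after seeing the data, the differences were the same and fewer calls remained. The replicate block then gave 4 of 7, against 0.813% of probe sets, without that of Hmgb4 (limma, adjusted p = 0.0735). The split block gave 0 of 7, against 0.473%, with an adjusted p of 0.0503 for H2bl1 and 0.0641 for the weaker probe set of H1f7.

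The core variants of condensing spermatids had the most negative log2 differences, -2.70 to -2.50. H2al2a, on chromosome 2, whose product pairs with TH2B in nucleosomes that take up transition proteins, read 86.0, 819, 605 and 849 in mutant replicates 1 to 4, against 2794, 4424, 3506 and 1865 in wild-type replicates 1 to 4. Every wild-type value was above every mutant value, and the closest pair, wild-type replicate 4 and mutant replicate 4, differed 2.20-fold. Its means were 589.7 ± 353 in mutants and 3147 ± 1084 in wild type (SD, n = 4 each). On the log2(value + 16) scale, which understates the change of dim genes, H2al2a was 6.52-fold lower in mutants (log2 difference -2.70, standard error 0.64). The limma test gave an adjusted p of 0.155 without a block, 0.0260 under the replicate block and 0.0555 under the split block. RefSeq lists 2 close relatives of this gene, H2al2b and H2al2c, on the Y chromosome, and whether they share its probes was not tested.

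H2bl1, on chromosome 13, encodes an H2B-like protein and read 121, 644, 482 and 752 in mutants, against 2149, 3357, 2752 and 1721 in wild type. The order of mice was the same as for H2al2a, with mutant replicate 1 lowest of all. Means were 500.0 ± 276 in mutants and 2495 ± 714 in wild type. The difference was -2.50 on the log2 scale (standard error 0.50), a 5.64-fold lower level in mutants. Its limma adjusted p was 0.112 without a block, 0.0170 under the replicate block and 0.0344 under the split block, the lowest among the members in each of the 3 fits.

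H2ap, on the X chromosome, read 93.1, 929, 480.4 and 781 in mutants and 3017, 4037, 3219 and 1721 in wild type on the brighter of its probe sets. The groups did not overlap, and the lowest wild-type value was 1.85-fold above the highest mutant value. It was 6.41-fold lower in mutants (log2 difference -2.68, standard error 0.62; limma, adjusted p = 0.147 without a block, 0.0282 under the replicate block and 0.0547 under the split block). The other probe set of H2ap gave 4.51, 10.2, 2.25 and 1.07 in mutants and 0.538, 11.8, 12.7 and 12.7 in wild type. Those values are near the bottom of the array's scale and overlap between genotypes.

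The linker histones of spermatids were 3.51-fold to 4.70-fold lower in mutants. Hils1, on chromosome 11, a linker histone of elongating spermatids, read 865, 5403, 3546 and 4626 in mutants, against 10481, 14257, 11307 and 7026 in wild type. It had the smallest difference of the 7 probe sets (log2 difference -1.81, standard error 0.52), and the lowest wild-type mouse exceeded the highest mutant by 1.30-fold. It was not called in any of the 3 fits (limma, adjusted p = 0.253 without a block, 0.0522 under the replicate block and 0.109 under the split block).

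H1f7, on chromosome 15, whose product gathers at one pole of the spermatid nucleus, had 2 probe sets that gave like differences and unlike calls. The brighter one read 293, 4125, 2420.4 and 3355 in mutants and 9534, 9546, 9328 and 6001 in wild type. The suffix of its identifier marks a probe set whose probes may match more than 1 transcript. The other read 150.0, 706, 442 and 644 in mutants and 1938, 2719, 2059.9 and 1219 in wild type. Neither overlapped between genotypes. Log2 differences were -2.23 (standard error 0.72) and -2.14 (standard error 0.45). The brighter probe set was not called in any of the 3 fits (limma, adjusted p = 0.347, 0.0938 and 0.146 without a block and under the replicate and split blocks). The weaker one was called with either block (0.123, 0.0218 and 0.0432 in the same order).

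Hmgb4, on chromosome 4, read 176, 1696, 1440.4 and 2083 in mutants, against 5225, 7083, 5971 and 4038 in wild type. The groups were apart by 1.94-fold at their closest. Means were 1349 ± 825 in mutants and 5579 ± 1280.2 in wild type. Hmgb4 was 5.48-fold lower in mutants (log2 difference -2.45, standard error 0.67; limma, adjusted p = 0.222 without a block, 0.0433 under the replicate block and 0.0812 under the split block). Its call under the replicate block was lost without the filter. RefSeq lists an antisense gene, Hmgb4os, whose promoter window overlaps that of Hmgb4 on the other strand, and whether it adds to this signal was not tested.

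**Figure D1:**
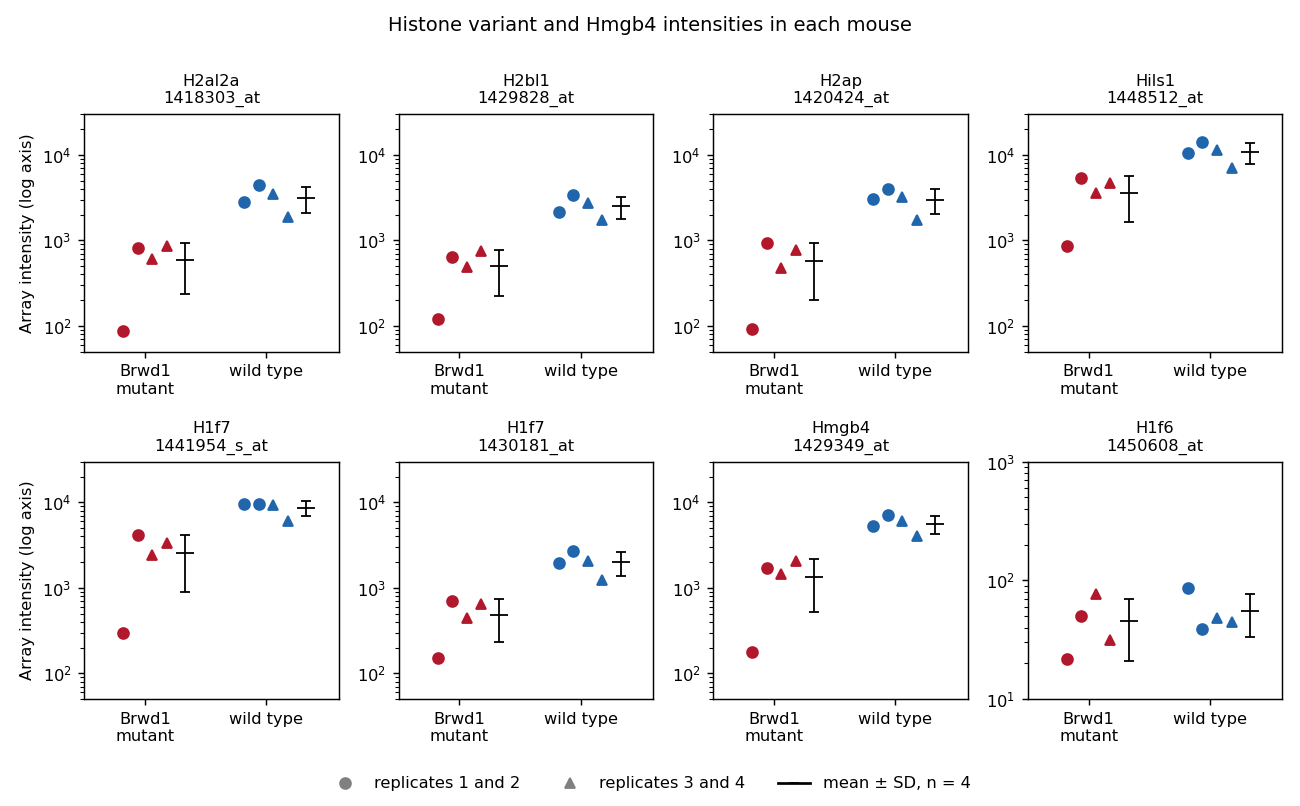
Array intensity (log axis) in each mouse for the 7 kept probe sets and for H1f6, whose panel has a lower scale, with mutants left of wild type. Circles are replicates 1 and 2, triangles replicates 3 and 4, and bars give the mean ± SD of 4 mice. On the 7 kept probe sets all mutant values lie below all wild-type values, with mutant replicate 1 lowest, while H1f6 overlaps between 21.8 and 86.7.

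The contrast of meiotic with spermatid variants rested on 1 dim probe set. H1f6 read 21.8, 50.3, 77.1 and 31.4 in mutants, against 86.7, 39.1, 48.6 and 44.5 in wild type, and the groups overlapped. With no filter the log2 difference of H1f6 was -0.25 (standard error 0.33; limma, adjusted p = 0.999 without a block, 0.838 under the replicate block and 0.826 under the split block). Detection calls are not among the values used here, so the distance of H1f6 from background is unknown. Its values therefore do not show whether a meiotic variant changed.

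The mean log2 level of the 5 spermatid variants alone was 7.72, 10.68, 10.05 and 10.58 in mutants and 12.14, 12.57, 12.31 and 11.55 in wild type, without overlap. Minus H1f6 in the same mouse, the difference between genotypes was -2.14 log2 units. Because H1f6 is dim, this value does not measure a contrast of spermatid with meiotic variants. No test is given, since the genes were chosen with results known. With the median of 19 genes of meiotic spermatocytes in place of H1f6, a choice made after seeing the data, the difference was -2.26.

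The 7 probe sets had the same lowest mutant and the same lowest and highest wild-type mice. Relative to the wild-type mean of each probe set, mutant replicate 1 deviated by -4.89 to -3.53 log2 units (median -4.72). Median deviations were -1.61, -2.07 and -1.54 in mutant replicates 2, 3 and 4. In wild type they were 0.01, 0.47, 0.14 and -0.57. Mutant replicate 1 was the lowest of its group and wild-type replicate 4 the lowest of its own on all 7 probe sets, and wild-type replicate 2 was the highest wild-type mouse on all 7.

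Hils1 deviated least in mutant replicates 2, 3 and 4, at -0.95, -1.55 and -1.17. Pearson's r between pairs of these probe sets over the 8 arrays was 0.959 to 0.997 (21 pairs). After subtraction of genotype means it was 0.947 to 0.997. These correlations are descriptive: the points share mice, arrays and scaling, and mutant replicate 1 stretches the range.

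**Figure D2:**
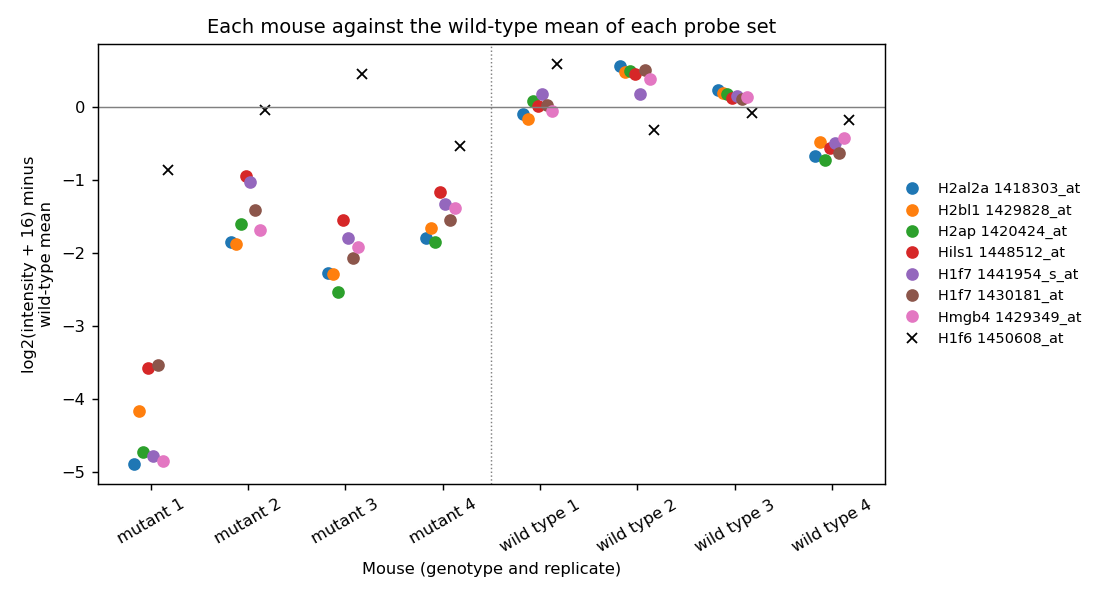
Deviation of each mouse from the wild-type mean, in log2(intensity + 16), for 7 kept probe sets (circles) and H1f6 (crosses), with the 4 mutants left of the 4 wild-type mice. Mutant replicate 1 lies at -3.53 or lower on the 7 probe sets, the other mutants between -2.54 and -0.95, and wild-type mice between -0.73 and 0.56.

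The size and the error of the differences turned on mutant replicate 1. With that mouse left out and the split as a block, all 7 probe sets were called lower, against 2.29% of kept probe sets. Log2 differences then ran from -1.92 for H2al2a, -1.91 for H2bl1 and -1.90 for H2ap to -1.63 for Hmgb4, -1.60 and -1.32 for H1f7 and -1.15 for Hils1 (limma, adjusted p from 0.00138 to 0.00473). When mice numbered 1 were left out of both genotypes under the replicate block, an alternative chosen after seeing the data, all 7 were also called, against 1.87% (log2 differences from -2.01 to -1.22). Without mutant replicate 1 and without a block there were 3 calls, H2al2a, H2bl1 and Hmgb4, against 0.44% of kept probe sets.

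The differences were negative on both sides of the split. Within replicates 1 and 2 they were -3.60 for H2al2a, -3.17 for H2bl1, -3.45 for H2ap, -2.49 for Hils1, -3.08 and -2.74 for H1f7 and -3.41 for Hmgb4, with no call (limma, adjusted p from 0.179 to 0.323; 2894 of 27022 kept probe sets had an unadjusted p under 0.05 and 0 were called). Within replicates 3 and 4 they were -1.81, -1.83, -1.91, -1.13, -1.39, -1.54 and -1.49 in the same order, with no call (limma, adjusted p from 0.0650 to 0.107). In that fit 3033 of 27022 kept probe sets had an unadjusted p under 0.05 and 23 were called. A change of the genotype difference across the split was not called for any of the 7 (interaction term in limma, adjusted p from 0.789 to 0.800, and unadjusted p from 0.122 to 0.227, while 1420 of 27022 probe sets had an unadjusted p under 0.05).

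Replicates 3 and 4 of both genotypes also held epididymis transcripts: 8 marker genes summed to 66448 and 70099.6 in mutants and 59683 and 60466 in wild type there, against 439 and 224 in mutants and 318 and 661 in wild type in replicates 1 and 2. Between the sides of the split 11040 probe sets were called. Over both genotypes the 7 probe sets were 0.07 to 0.65 log2 units higher in replicates 3 and 4, and none was called (limma, adjusted p from 0.423 to 0.916). That sign came from the mutants, where replicate 1 was far lowest. Median deviations from the wild-type mean were -4.72, -1.61, -2.07 and -1.54 in mutant replicates 1 to 4. In wild type they were 0.01 and 0.47 in replicates 1 and 2, against 0.14 and -0.57 in replicates 3 and 4.

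**Figure D3:**
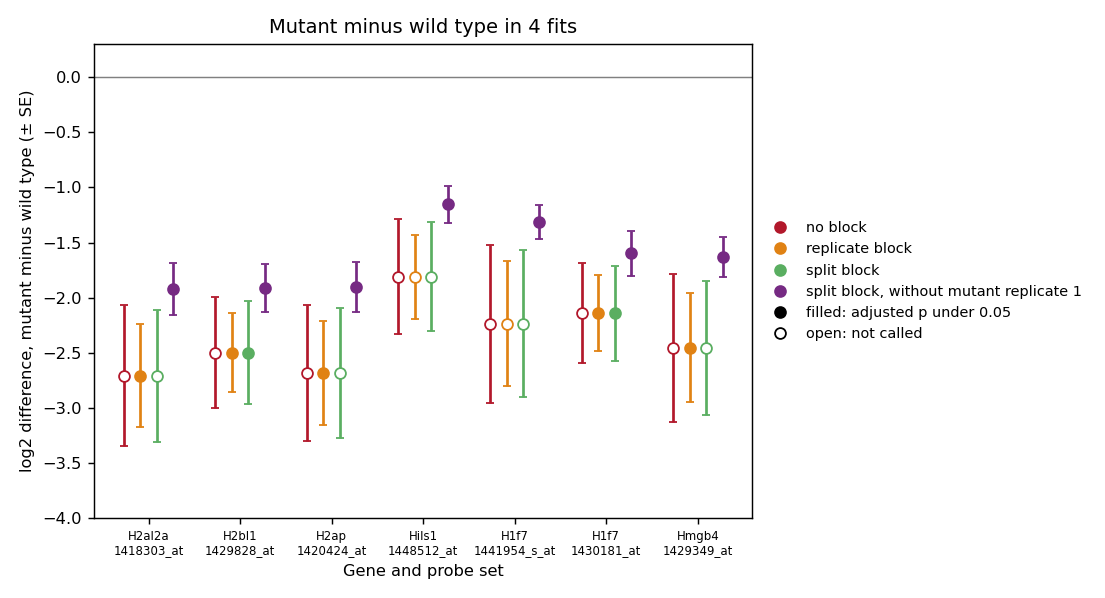
Log2 difference, mutant minus wild type, with its standard error for the 7 kept probe sets in 4 limma fits. Filled points were called at an adjusted p under 0.05: none without a block, 5 with the replicate block, 2 with the split block, and 7 with the split block and without mutant replicate 1, where differences run from -1.92 to -1.15.

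Genes listed as transition proteins and protamines were also lower in mutants. The 5 genes of this list had a median log2 difference of -3.32. Of these 1 was called lower without a block, 5 under the replicate block and 4 under the split block. Among all kept probe sets 0.115%, 2.18% and 1.48% were called lower in these 3 fits. Tnp2, a transition protein, read 119, 1666, 577 and 1304 in mutants and 13826, 17275, 11738 and 8418 in wild type. Its log2 difference was -4.26, that of the protamine gene Prm2 was -4.17 and that of Prm3 was -1.98. All 5 were lowest in mutant replicate 1, the mouse in which the variants were lowest. Without that mouse and with the split block, Tnp2 had -3.38, Prm2 -3.49 and Prm3 -1.41, and the list's median was -2.59.

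Among other histone genes 1 was called. Of 10 measured genes of other core variants, the median log2 difference was 0.15. With either block 1 was called lower, against 2.18% (replicate block) and 1.48% (split block) of kept probe sets. That gene was H2al3, an H2A relative on the X chromosome, whose symbol is also an older name of H2ap under another gene identifier. H2al3 read 24.5, 189, 172 and 283 in mutants and 966, 1332, 1336 and 761 in wild type, without overlap. Its log2 difference was -2.89 (limma, adjusted p = 0.0957 without a block, 0.0170 under the replicate block and 0.0261 under the split block). Without mutant replicate 1 and with the split block, H2al3 had -2.26.

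Macroh2a1, a large H2A variant of silent chromatin, differed by 0.33 on the log2 scale (limma, adjusted p = 0.692 without a block), and H2ax, which marks DNA breaks and the sex chromosomes of spermatocytes, had 0.18. Of the other linker histones 2 of 8 were measured above the filter, H1f2 (0.25) and H1f10 (0.13), and neither was called. None of 6 other HMG genes was called in the 3 fits, with a median of 0.03. Among them Hmgb2, the HMG-box relative of Hmgb4 in germ cells, had a difference of -0.02.

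Of 17 measured genes of histone chaperones, readers and writers linked to histone removal, 1 was called lower with either block, Cdyl, at -1.86. The shares of kept probe sets called lower were 2.18% and 1.48% under the replicate and split blocks. Cdyl read 307, 1188, 833 and 1054 in mutants and 2759, 3678, 3020.2 and 1941 in wild type. Brdt, a bromodomain reader of acetylated histones in germ cells, had a difference of -0.10, and the list's median was -0.02.

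Markers of elongating spermatids were lower in mutants too. Under the replicate block 12 of 16 were called lower, as was 1 of 19 spermatocyte markers, against 2.18% of kept probe sets. The split block called 1.48% of kept probe sets lower. The 16 genes listed for elongating spermatids had a median log2 difference of -1.99. None was called without a block, 0 of 16, whereas 12 fell under the replicate block and 9 under the split block, among them Spata18 (-2.76), Fscn3 (-3.23), Hspa1l (-3.21) and Tssk6 (-4.19). Without mutant replicate 1 and with the split block, these had -2.33, -2.58, -2.55 and -3.16 in the same order, and the list's median was -1.47. Their summed intensity was 32953, 64866, 45085 and 54315 in mutants and 106194, 136768, 113115 and 75522 in wild type, so it was lowest in mutant replicate 1 and, within wild type, in replicate 4, as for the variants.

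The 15 genes listed for round spermatids had a median of -0.89 and were not uniformly lower. Their differences ranged from -1.80 to 0.14, 13 were negative and some lay near 0. Without a block 0 were called, and 2 fell with the replicate block, Izumo1 (-1.80) and Pgk2 (-0.85), of which Pgk2 was also called with the split block. Those blocks called 2.18% and 1.48% of kept probe sets lower. Without mutant replicate 1 and with the split block, Izumo1 had -1.16 and Pgk2 -0.67, and the list's median was -0.51. The 19 genes of meiotic spermatocytes had a median of -0.04, and 1 fell with either block, the synaptonemal complex gene Syce2 (-0.48). Their summed intensity ranged from 41307 to 51414 in mutants and from 43591 to 52224 in wild type. The part of these cell types in the lower values of the variants was not tested.

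**Figure D4:**
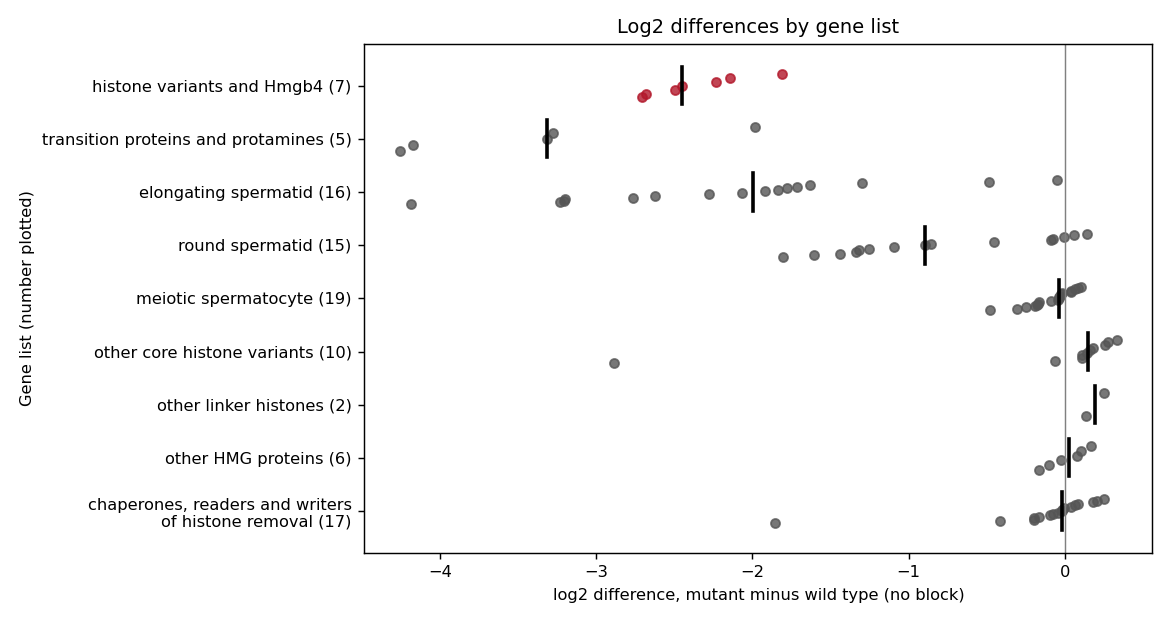
Log2 difference, mutant minus wild type without a block, of each measured gene by list, with the 7 kept member probe sets in the top row and vertical bars at medians. Members lie between -2.70 and -1.81, transition proteins and protamines between -4.26 and -1.98, and meiotic spermatocyte genes between -0.48 and 0.10. Single genes stand apart among the other core variants (H2al3, -2.89) and the histone removal genes (Cdyl, -1.86).

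Many other genes followed the same pattern over the 8 mice. The mean of the 5 spermatid variants had its highest Pearson's r with Cypt1 (0.9996), Samd4 (0.9993), Cypt3 (0.9989), Otub2 (0.9989) and Ropn1 (0.9989), and 355 of 12868 named genes had an r above 0.95. Cypt1 averaged 1273 ± 650.3 in mutants and 3970.2 ± 903 in wild type (log2 difference -1.83). Otub2, a deubiquitinase gene, averaged 979 ± 596 in mutants and 4843 ± 1710.5 in wild type (-2.60).

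For Hmgb4 the highest were Tmco2 (0.998), Cst13 (0.998), Iqcf3 (0.998), Spata19 (0.998) and Vwa3b (0.998), and 320 genes had an r above 0.95. Spata19 averaged 2009 ± 1109 in mutants and 7516 ± 1322 in wild type (-2.18). With 8 mice that share arrays and 1 far mouse, these values describe likeness only.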

How the data were processed

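RNA of whole testes from 4 Brwd1 mutant and 4 wild-type mice was measured on 1 Affymetrix array each. The deposited values are linear intensity values. GCOS made them, per the submitters' processing notes, and no version or setting of it is given in the sources read here. All 8 columns were matched to samples by name. In the deposited intensity table each array has the same mean, 500, after trimming 2% at each end. Symbols came from the platform annotation, updated through Entrez identifiers, and chromosomes and promoters from RefSeq (GRCm38.p6). Of 45101 probe sets 64 controls were left out, 34945 had 1 symbol, 932 several and 9160 none.

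Values were taken as log2(value + 16), and 27022 probe sets with means above the 40th percentile were tested with limma (version 3.58.1, R 4.3.3), two-sided, with an intensity trend and Benjamini-Hochberg adjustment over all of them, at a threshold of 0.05. A gene in a list was represented by its brightest kept probe set. The fits were tested on simulated data. A first pass mark, on the share of changed probe sets recovered, was missed without a block. It was replaced by marks on the accuracy of the differences and on false calls. Simulated errors were independent between probe sets, with no shift shared within a mouse. The marks therefore do not show how calls behave with a far mouse such as mutant replicate 1. Figures were drawn with matplotlib 3.10.9.

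Both genotypes share replicate numbers 1 to 4. Deviations from genotype means correlated within each number (r from 0.519 to 0.618). Both genotypes share the split, which alone can make mice of the same number correlate, so these values do not show pairing. The labels state no pairing, and 2 of 8 mice were closest to their own number. The replicate block is therefore an assumption, and values are given without a block and with each block. Each replicate is 1 mouse, so p-values without a block measure the difference against the spread between mice. With a block they use the spread that remains after the block is taken out.

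The rule for named genes took every member, up to 4 genes per list and the 5 genes most like the spermatid variants and Hmgb4. Likeness to H1f6 and H2bc1 was not computed. Members and lists were chosen with earlier results of these data known. Alternatives covered normalization, pseudocount, filter, variance model, array weights, blocks and single mice. The split block sets replicates 1 and 2 against 3 and 4, and the labels do not say what separates them. Background correction could not be varied on summarised values.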

Additional observations from a re-analysis of the deposited data

Results flagged for a closer look

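Among 18 groups of 4 values (9 probe sets in 2 genotypes, log2 scale), 4 had 1 mouse far from the other 3. For a single group chance gives about 1 in 20. The groups are the same mice read by 9 probe sets and are not independent, so the count cannot be set against that rate. The measure is the gap to the nearest mouse as a share of the group's whole range, set against Dixon's critical value for 4 samples. Mutant replicate 1 was far below the other mutants for H2al2a (0.845) and Hmgb4 (0.847). Wild-type replicate 4 was far below the other wild-type mice on the brighter probe set of H1f7 (0.9503), where it read 6001. Wild-type replicate 1 was far below the others on the dim probe set of H2ap (0.938), where it read 0.538.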

How the results depend on the processing

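All 181 log2 differences of the 7 kept probe sets under 26 alternatives were negative; 34 were called and 147 were not. The 7 probe sets had 0 calls without a block, 5 with the replicate block, 2 with the split block, 6 with array weights, 4 with the replicate block and no filter, 0 with the split block and no filter, 0 to 3 with any 1 mouse left out, and 7 both with the split block and without mutant replicate 1 and with the replicate block and without number 1. Over all kept probe sets 31 were called without a block. The count was 58 with a pseudocount of 64, 646 with the replicate block, 485 with the split block, 668 with array weights and 0 within replicates 1 and 2. It was 701 with the split block and without mutant replicate 1, and 540 with the replicate block and without number 1. Without the filter, over all 45037 probe sets, 400 were called with the replicate block and 256 with the split block. Among kept probe sets, with any 1 mouse left out, the count ran from 0 to 119. It was 0 without mutant replicate 3 or 4 and without wild-type replicate 1, 2 or 3, 12 without mutant replicate 2, 56 without wild-type replicate 4 and 119 without mutant replicate 1. In the fits with 0 calls 1366 to 2894 probe sets had an unadjusted p under 0.05. The causes were not tested. The difference of spermatid variants from H1f6, -2.14, was -2.50 to -1.66 with any 1 mouse left out, a range that does not bear on how well dim H1f6 was measured, and array weights were not run on it. Signal over background is unknown, which limits H1f6 and the dim probe set of H2ap.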

Other observations

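Markers of spermatogonia and of cells other than germ cells had median log2 differences between -0.01 and 0.47, where all kept probe sets had 0.07. None of them was called without a block (limma), 2 rose under the replicate block (Fcgr3 and Sox17) and 3 under the split block (these and Cldn5). Over all 27022 kept probe sets 58 and 84 rose under the replicate and split blocks. Medians were 0.15 for spermatogonia (12 genes), 0.12 for Sertoli cells (11), 0.12 for Leydig cells (5), -0.01 over 6 genes of peritubular and smooth muscle cells, 0.10 over 8 endothelial genes, 0.22 over 10 genes of macrophages and leukocytes, and 0.06 over 8 epididymis genes. The 1 measured blood gene, Alas2, had 0.47. Fcgr3, an Fc receptor gene, averaged 4174 ± 818 in mutants and 2673 ± 342 in wild type (SD, n = 4 each; log2 difference 0.63; limma, adjusted p = 0.203 without a block, 0.0302 under the replicate block and 0.0235 under the split block). Among spermatogonial genes Kit, the receptor of differentiating spermatogonia, read 667, 773, 729 and 598 in mutants and 562, 487, 438 and 442 in wild type, without overlap, and was not called in any of the 3 fits (limma, adjusted p = 0.265, 0.111 and 0.0722). The part of these cells in the lower values of the variants was not tested.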
